A study of Mus musculus with 502 samples.

Results

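Kidney immune cells stored in the cold for 2 days were compared with cells stored for 6 h, using the cells of both timepoints whose labels carry the pool name IM793. There were 78 such cells at day 2 and 76 at 6 h, of 502 cells in the series. They were selected by their labels alone.

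The study stored whole mouse kidneys before dissociation and sequenced sorted immune cells, to ask how long storage can last before the transcriptomes of single cells differ from those of fresh tissue. All mice were young wild type CD1 mice with no transgene and no drug. Intact, unperfused kidneys were kept cold in HTS-FRS, a solution made for the cold storage of organs, for 6 h or for 2 days, and were then dissociated with an enzyme at warm temperature. Cells that excluded propidium iodide and carried Cd45, the surface protein of white blood cells, were sorted 1 per well. Each timepoint came from the pooled kidneys of the same mouse, so that a timepoint was 1 sample, and storage time and animal cannot be told apart. The comparison has no replicate check, no p-value was computed, and a difference between the timepoints is a difference between these libraries. Fresh cells of the same pool (75 cells) are given beside some values as a reference only.

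The kidney holds resident macrophages, circulating monocytes and neutrophils, and lymphocytes that stay in the tissue or pass through it in the blood. Interferon gamma, released by T and NK cells, switches on target genes, among them Irf1, guanylate binding proteins, and the immunoproteasome and peptide transporters that load MHC class I. Young B cells that leave the bone marrow carry surface IgM and later gain IgD and the low-affinity IgE receptor Cd23, which is encoded by Fcer2a.

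Values are in rpm, a gene's counts in a cell as a share of all gene counts of that cell, scaled to 1000000. The protocol carries no molecular identifiers, so counts are reads and not molecules, and all intervals below are exact 95% intervals that cover counting error only. Totals per cell ran from 11737 to 1455372 at 6 h (median 962321.5) and from 173824 to 1390599 at day 2 (median 913832), and only 2 cells, both at 6 h, held fewer than 100000 counts. Of all cells at 6 h and at day 2, 94.7% and 87.2% had at least 10 rpm of Ptprc, the gene of Cd45. The index sequences that tell the libraries of the pool apart were disjoint, with 0 index pairs, 0 i7 and 0 i5 indices shared between the timepoints. Markers of red cells, endothelium and fibroblasts each reached 10 rpm in under 10% of cells at both timepoints, and summed to a mean of 4.49, 5.0 and 0.0475 rpm at 6 h and 0, 4.20 and 1.66 rpm at day 2. The 12 kidney epithelial markers summed to 76.8 rpm at 6 h and 161.8 rpm at day 2, with at least a pair of them at 10 rpm in 2 and 3 cells.

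Fewer genes were read per cell at day 2. The median was 2136 genes at 6 h (quartiles 1720.75 and 2830.25) and 1731 at day 2 (quartiles 1530.5 and 2016.75), against 2649 in the fresh cells. After each cell was thinned to 100000 counts the medians were 1699 and 1282, so the difference was still there at equal depth. It was also there in cells of 1 kind: the median was 2137 against 1697 genes in T cells, 1929 against 1660 in B cells and 2392 against 1915.5 in C1q-expressing macrophages. Mitochondrially encoded genes held a median of 2.51% of counts at 6 h (0.281% to 12.2%) and 3.11% at day 2 (0.681% to 13.1%). The 18S rRNA gene held 3.92% and 4.36%.

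The lower gene number bears on every share of cells given below. Of 6269 measured genes (mean of at least 10 rpm at either timepoint and a read in at least 10% of its cells), 78.3% were at 10 rpm in a smaller share of the day 2 cells than of the 6 h cells, and 21.7% in a larger share. The median log2 ratio of day 2 to 6 h, computed from mean rpm plus 1, was 0.01 over all cells, -0.085 without the neutrophil gate described below, and -0.18 and -0.30 within T and B cells. The part of gene detection in the shares was not tested.

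The kinds of cells recovered were not the same. A cell was placed in a gate when it had at least 10 rpm of at least 2 markers of a type (3 for neutrophils). The B gate, with Cd79a, Cd79b and Ms4a1 among its markers, held 9 of 76 cells at 6 h, 11.8% with an interval of 5.56% to 21.3%, and 29 of 78 at day 2, 37.2% (26.5% to 48.9%). The C1q gate (C1qa, C1qb, C1qc, the chains of the complement component made by tissue macrophages) held 5 cells, 6.58% (2.17% to 14.7%), against 16, 20.5% (12.2% to 31.2%). The neutrophil gate, led by the calprotectin genes S100a8 and S100a9, held 14 cells, 18.4% (10.5% to 29%), at 6 h and 1 cell, 1.28% (0.0325% to 6.94%), at day 2. These intervals are over cells of 1 sample per timepoint and do not cover the spread between mice.

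**Figure D1:**
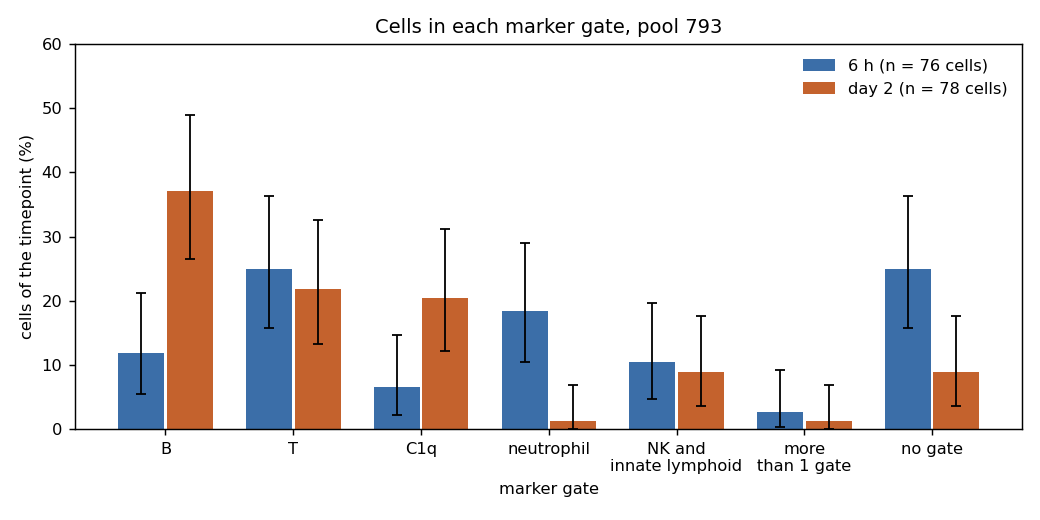
Share of the sequenced cells of each timepoint (y axis, percent) in each marker gate (x axis). Bars are the shares, and lines are exact 95% binomial intervals over cells of 1 sample per timepoint. The B gate is the tallest at day 2 with 37.2%, and the neutrophil gate stands at 18.4% at 6 h and 1.28% at day 2.

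T cells (Cd3d, Cd3e, Cd3g) were 19 of 76 at 6 h, 25% (15.8% to 36.3%), and 17 of 78 at day 2, 21.8% (13.2% to 32.6%). Cells with NK or innate lymphoid markers but without CD3 were 8 and 7. Another 2 cells at 6 h passed both the B and the C1q gate, and 1 cell at day 2 passed the B, T and C1q gates. No gate took 19 cells at 6 h, 25% (15.8% to 36.3%), and 7 at day 2, 8.97% (3.69% to 17.6%). Of these ungated cells, 16 of 19 at 6 h and 4 of 7 at day 2 had at least a pair of the monocyte genes Ly6c2, Ccr2, Plac8, Treml4 and Ace at 10 rpm, a set put together after the values were seen. Among the fresh cells there were 0 B cells in 75 (an exact interval of 0% to 4.8%) and 16 neutrophils. Ungated cells were the most frequent fresh class, with 40 of 75.

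Over all cells, 903 of 6269 measured genes were at least 2-fold higher at day 2, which is 14.4%, and 1071 were at least 2-fold lower, which is 17.1%. Among those past 2-fold, genes were ranked by how far the share of cells with 10 rpm differed, and genes among the first 10 in each direction are described here.

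**Figure D2:**
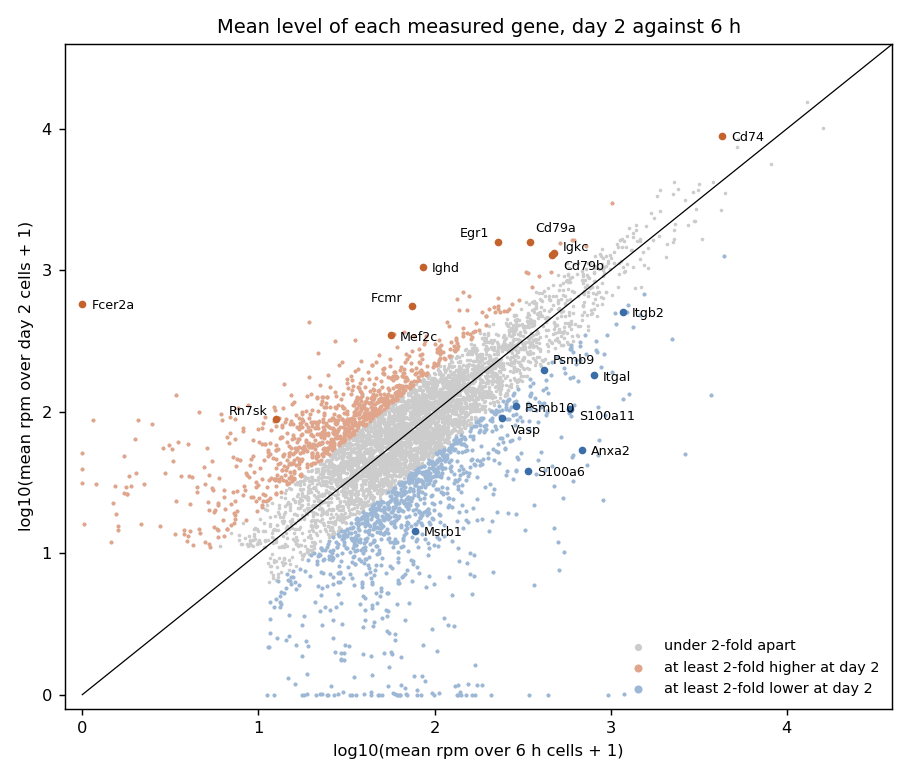
Mean level of the 6269 measured genes over the 76 cells at 6 h (x axis) and the 78 cells at day 2 (y axis), both as log10 of rpm plus 1, with the line of equality. Coloured points are the 903 genes at least 2-fold higher and the 1071 at least 2-fold lower at day 2, and the labelled points are the 10 named higher and 9 named lower genes.

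Of the 10 genes named as higher at day 2, 7 belong to B cells. Cd79a and Cd79b encode the signalling chains of the B cell receptor, Igkc the kappa light chain, Ighd the heavy chain of IgD, Fcmr the receptor for IgM, Cd74 the invariant chain of MHC class II, which macrophages also make, and Fcer2a is Cd23. Cd79a was at 10 rpm in 11.8% of cells at 6 h and 38.5% at day 2, with means of 348.4 and 1572 rpm (log2 ratio 2.17). Igkc had means of 464.6 and 1285 rpm (1.47), and Cd79b of 474.8 and 1317 rpm (1.47). These differences ran beside the larger B gate. Within the B gate the log2 ratio was 0.49 for Cd79a, -0.19 for Igkc and -0.16 for Cd79b, so that the level per B cell of these 3 genes was under 2-fold apart.

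Fcer2a and Ighd, in contrast, also differed within the B gate. Fcer2a (GRCm38 chromosome 8, 3681737 to 3694175, minus strand) had no read in any of the 76 cells at 6 h, and was at 10 rpm in 24 of 78 at day 2. In the B gate it had no read in the 9 cells at 6 h, an interval of 0% to 33.6%, and it was at 10 rpm in 23 of 29 at day 2, 79.3% (60.3% to 92%), with a median of 1167 rpm and a highest value of 4232 rpm. Ighd (chromosome 12, 113406604 to 113416324) was at 10 rpm in 6 of 9 B cells at 6 h (median 952.0 rpm, highest 1667 rpm) and in 26 of 29 at day 2 (median 2631 rpm, highest 8865 rpm), a log2 ratio of mean rpm of 1.96. Ighm, the IgM heavy chain, was present in every B cell of both timepoints, with means of 10970 and 7764 rpm.

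With the minimum lowered to 9 cells per timepoint, a choice made after the data were seen, the whole B gate could be described. Of 4178 measured genes in it, 17.9% were at least 2-fold higher at day 2 and 33.8% at least 2-fold lower, around a median log2 ratio of -0.30, while 80.2% were at 10 rpm in a smaller share of the day 2 cells and 18.6% in a larger one. These counts moved with the settings. Without the highest cell of each gene, 1270 genes were higher in place of 748, and the median was 0.026. With no filter on low values, 3651 genes were higher and 2941 lower. Of 19 measured genes of a list of B cell subset genes, 7 were at least 2-fold higher (Ighd, Iglc1, Fcer2a, Cr2, Cd22, Fcrl1 and Bank1) and 1 was lower. Cd22, an inhibitory receptor of B cells, had means of 279.9 and 857.0 rpm and was in 3 of 9 and 16 of 29 cells. The gene that was lower was Vpreb3, which belongs to B cell precursors and recently formed B cells, with 5 of 9 cells and 765.2 rpm at 6 h against 13 of 29 cells and 275.6 rpm at day 2.

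**Figure D3:**
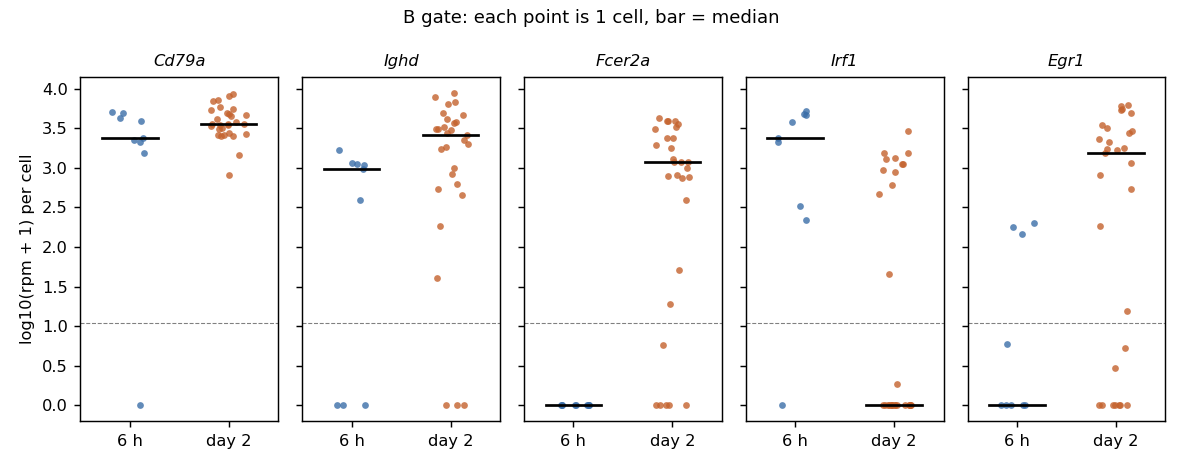
Level of 5 genes in each cell of the B gate (9 cells at 6 h, 29 at day 2), as log10 of rpm plus 1 (y axis). Each point is 1 cell, the bar is the median, and the dashed line is 10 rpm. Cd79a overlaps between the timepoints, Fcer2a is at 0 in all 9 cells at 6 h, and the median of Irf1 is 2376 rpm at 6 h and 0 at day 2.

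Of the other 3 genes named as higher, Mef2c is a transcription factor of lymphocytes and myeloid cells. It was in 14.5% of cells at 6 h and 43.6% at day 2, and within the B gate in 3 of 9 and 20 of 29 cells (log2 ratio 2.80). Egr1, an immediate early transcription factor, had a mean of 227.3 rpm at 6 h and 1579 rpm at day 2 (2.79). It was in 24 of 76 and 44 of 78 cells, and in 41 of 75 fresh cells with a mean of 411.8 rpm. The highest cell had 4632 rpm at 6 h and 11880 rpm at day 2. In the B gate its median was 0 rpm at 6 h and 1515 rpm at day 2.

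Rn7sk, the 7SK small nuclear RNA that holds back transcription elongation (chromosome 9, 78175303 to 78175633), differed most in its share among the genes higher at day 2. It was at 10 rpm in 14 of 76 cells at 6 h, 18.4% (10.5% to 29%), and 47 of 78 at day 2, 60.3% (48.5% to 71.2%), and in 18.7% of fresh cells. The mean was 11.7 rpm at 6 h and 87.9 rpm at day 2 (log2 ratio 2.81), so the level was low at both. The same direction was seen in T cells (3 of 19 against 11 of 17), B cells (1 of 9 against 14 of 29) and C1q macrophages (1 of 5 against 13 of 16). The gene has many near-identical copies in the genome, and how reads were shared among them is uncertain.

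Of the 10 genes that ranked first as lower at day 2, 9 are described, and they can be told apart by their known roles. Itgal and Itgb2 encode the chains of the integrin LFA-1, Vasp an actin regulator at the leading edge of moving cells, Anxa2, S100a6 and S100a11 calcium-binding proteins, and Msrb1 a methionine sulfoxide reductase. Psmb9 and Psmb10 are immunoproteasome subunits that interferon induces.

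Anxa2 was in 35 of 76 cells at 6 h and 3 of 78 at day 2, with means of 682.9 and 52.9 rpm (log2 ratio -3.67, or -4.40 without the highest cell of each timepoint), and 1 cell held 50.9% of its day 2 reads. S100a6 was in 36 and 6 cells, with means of 336.8 and 37.3 rpm (-3.14). S100a11 was in 47 and 18 cells, and its log2 ratio was -2.49, or -3.29 without its highest cells. Msrb1 was in 35 and 8 cells (-2.43, or -3.37 without its highest cells), and was nearly confined to cells outside the T and B gates, since 2 of 19 T cells and 1 of 9 B cells had it at 6 h. These genes were lower where the neutrophil gate and most measured monocyte markers were lower too. The 10 monocyte markers summed to a mean of 3305 rpm at 6 h and 2125 rpm at day 2. Of the 6 measured monocyte markers 5 were lower by any amount. Only Nr4a1 was higher (log2 ratio 0.34), beside 50.4% of all measured genes. The 6 neutrophil markers summed to 9304 and 391.0 rpm, with all 6 at least 2-fold lower, beside 17.1% of all measured genes. Retnlg, among them, had no read at day 2, and 0 of the 6 was at 10 rpm in 10% of the day 2 cells. The 6 markers define the neutrophil gate, so their difference is no separate observation from the gate counts. With the neutrophil gate cells left out of both timepoints, the log2 ratio was -3.04 for Anxa2, -2.90 for S100a6, -1.68 for S100a11 and -2.25 for Msrb1. The part of the monocytes was not tested. Within the T gate, Anxa2 was still in 5 of 19 against 0 of 17 cells, and S100a6 in 4 of 19 against 1 of 17.

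Itgal (chromosome 7, 127296260 to 127335138) was in 52 of 76 cells at 6 h, 68.4% (56.8% to 78.6%), and 18 of 78 at day 2, 23.1% (14.3% to 34%), with medians of 445.0 and 0 rpm. In T cells it was in 16 of 19 and 6 of 17, and the log2 ratio of the means was -0.91, short of 2-fold. Itgb2 was in 58 and 29 cells (log2 ratio -1.21), and its T cell ratio of -0.96 was short of 2-fold as well. Vasp had means of 240.3 and 89.5 rpm over all cells (-1.41), of 183.9 and 48.4 rpm in T cells, and of 68.4 and 75.5 rpm in B cells.

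Most genes of the interferon response were lower at day 2 over all cells. Of 15 measured genes of the interferon gamma list (guanylate binding proteins, immunity-related GTPases and their regulators), 11 were at least 2-fold lower and 0 at least 2-fold higher, against the 17.1% and 14.4% of all measured genes. The median log2 ratio was -1.86. Gbp5, among the 11, had no read at day 2 and was measured only through the 6 h cells. Gbp2, a guanylate binding protein that coats vacuoles holding microbes, was in 33 of 76 and 10 of 78 cells, with means of 1180 and 121.9 rpm (-3.27). The 14 neutrophil gate cells at 6 h had a mean of 4902 rpm of it. The ungated cells, most of them with monocyte genes, had it in 9 of 19 cells with a mean of 632.3 rpm at 6 h and in 1 of 7 with a mean of 360.9 rpm at day 2, and the part of their smaller number in the difference was not tested. Igtp, a GTPase of the same defence, was in 30 and 8 cells, with means of 596.0 and 91.9 rpm (-2.68). Irf1, the transcription factor that carries the signal on, was in 51 and 31 cells, with means of 1467 and 480.2 rpm (-1.61). Since the neutrophil gate went from 14 cells to 1, the ratios were also taken with its cells left out of both timepoints, a choice made after the data were seen. Gbp2 then had means of 340.1 and 123.5 rpm (-1.45), the ratios of Igtp and Irf1 were -2.20 and -1.39, and 10 of the 15 genes were at least 2-fold lower (median -1.38), beside 18.2% of all measured genes. Gbp5 was still counted among the 10, with a mean of 4.85 rpm at 6 h, under the 10 rpm of the filter, and 0 at day 2. A cell had a median of 4 of the 15 genes at 10 rpm at 6 h, of 1 at day 2 and of 7 in the fresh cells, and 5 cells at 6 h and 17 at day 2 had none. All 15 were in a smaller share of cells at day 2, as were 78.3% of all measured genes.

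The list was also described within the lymphocyte gates. In T cells, 8 of 13 measured genes were at least 2-fold lower and 0 higher (median -1.32), beside 30.4% and 15.1% of all 3508 genes measured in T cells. Igtp was in 10 of 19 T cells at 6 h and 2 of 17 at day 2, and Irf1 in 11 and 6. The day 2 share of Igtp was under the 20% of cells that the gate filter asks to hold a read, and that of Irf1 was above it. Igtp may thus have been measured only through the 6 h cells, which shares at 10 rpm cannot decide. The 8 of 13 may be partly set by the filter. In B cells, 7 of 10 were at least 2-fold lower and 2 (Gbp3 and Ciita) higher, with a median of -3.04, beside 33.8% and 17.9% of all genes there. Of the 7, Gbp2, Gbp7, Tgtp1 and Tgtp2 had no read in the day 2 B cells and were measured only through the 6 h cells, so that their place among the lower genes was set by the filter. Gbp2 was in 4 of 9 B cells at 6 h and had no read in 29 at day 2 (0% to 11.9%). Its highest value at 6 h, 1588 rpm, was in a B gate cell with 4894 genes and no read of Cd79a or Ighd. Irf1 was in 8 of 9 (median 2376 rpm) and 12 of 29 (median 0).

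The promoters of 2 of these genes are shown because their letters carry the sequences known to bind the factors of the pathway, the interferon-stimulated response element (ISRE) and the gamma-activated site (GAS). The 250 bases before the transcription start were taken from RefSeq (build GRCm38.p6), all on the plus strand, 5′ to 3′, with the match in capitals. They lie at chr11:58199306-58199555 for Igtp, with an ISRE core (GAAANNGAAA on either strand) in capitals, and at chr11:53769764-53770013 for Irf1, with a GAS (TTCNNNGAA) in capitals.
Igtp: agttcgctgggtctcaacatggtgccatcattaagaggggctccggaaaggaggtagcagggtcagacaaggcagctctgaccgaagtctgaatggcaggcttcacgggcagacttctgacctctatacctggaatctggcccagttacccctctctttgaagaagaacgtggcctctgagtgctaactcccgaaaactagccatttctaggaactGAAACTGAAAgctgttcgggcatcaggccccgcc
Irf1: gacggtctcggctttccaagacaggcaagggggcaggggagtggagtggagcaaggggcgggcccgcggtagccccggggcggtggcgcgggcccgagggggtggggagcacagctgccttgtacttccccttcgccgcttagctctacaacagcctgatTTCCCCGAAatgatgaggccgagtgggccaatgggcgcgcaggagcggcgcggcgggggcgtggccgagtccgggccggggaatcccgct
The ISRE core lies 34 to 25 bases before the start of Igtp, and the GAS 90 to 82 before that of Irf1. The Igtp stretch also holds a GAS (ttctaggaa) just before its ISRE core, which is left in lower case. In windows of 300 bases (250 before and 50 after each start), 11 of the 15 measured genes of the list matched 13 promoters, of which 10 (76.9%) held an ISRE core and 7 (53.8%) a GAS. Of all 32851 promoters in that collection, 3.44% held the ISRE core and 8.30% the GAS. A match describes letters and is no evidence of binding in these cells.

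Of 19 measured MHC class I genes, which include those that cut and carry peptides, 7 were at least 2-fold lower (H2-Q7, Tap1, Tap2, Psmb8, Psmb9, Psmb10 and Nlrc5) and 1, H2-M3, was higher, with a median of -0.65, beside 17.1% and 14.4% of all measured genes. Without the neutrophil gate cells 4 of 19 were lower (21.1%) and 0 higher (median -0.86), beside 18.2% and 11.7% of all genes, and Psmb9 was just short of 2-fold (-0.99). Psmb9 (chromosome 17, 34181987 to 34187764) was in 51 of 76 cells at 6 h and 25 of 78 at day 2, with means of 417.8 and 196.8 rpm (log2 ratio -1.08). Psmb10 was in 46 and 18 cells (-1.40). In T cells 6 of 18 genes of the list were lower and 1 higher (median -0.61), beside 30.4% and 15.1% of all genes there, and in B cells 6 of 16 were lower and 1 higher (median -0.89), beside 33.8% and 17.9%, so that the shares that were lower lay near those of all genes. Tap1 was in 10 of 19 T cells at 6 h and 1 of 17 at day 2, and in 5 of 9 and 3 of 29 B cells. Psmb9 and Tap1 overlap on opposite strands and the counting ignored strand, so their reads may be split with uncertainty. Of 31 measured genes of the constitutive proteasome, 0 were at least 2-fold lower over all cells and 1 higher (median -0.23), and in T cells 11 of 31 were lower (median -0.62), near the 30.4% of all genes measured there. Without the neutrophil gate cells 6 of 31 were lower over all cells (19.4%), near the 18.2% of all genes.

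Of 20 measured genes of the type I interferon list, 9 were at least 2-fold lower over all cells and 0 higher (median -0.85), beside 17.1% and 14.4% of all genes. Without the neutrophil gate cells 6 were lower and 1 higher, beside 18.2% and 11.7% of all genes, with a median of -0.28. In the B gate 8 of 10 were lower (median -2.24), Zbp1 among them with no read at day 2, beside 33.8% of all genes, and in the T gate 3 of 11 (Oasl2 among them with no read at day 2), beside 30.4%, with 1 higher and a median of -0.20, close to the -0.18 of all genes measured in T cells. MHC class II genes had the opposite sign over all cells, with 3 of 11 at least 2-fold higher (H2-Oa, H2-Ob and Cd74), 0 lower and a median of 0.88, beside 14.4% of all genes higher and more B cells and macrophages in the sample. Without the neutrophil gate cells 2 of 11 were higher (18.2%, median 0.61), beside 11.7% of all genes, and Cd74 was short of 2-fold (0.78). With all cells, Cd74 was also just short of 2-fold when taken from summed counts (0.98). Within the B gate the median was 0.73, and H2-Ab1 had means of 2884 and 5807 rpm.

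**Figure D4:**
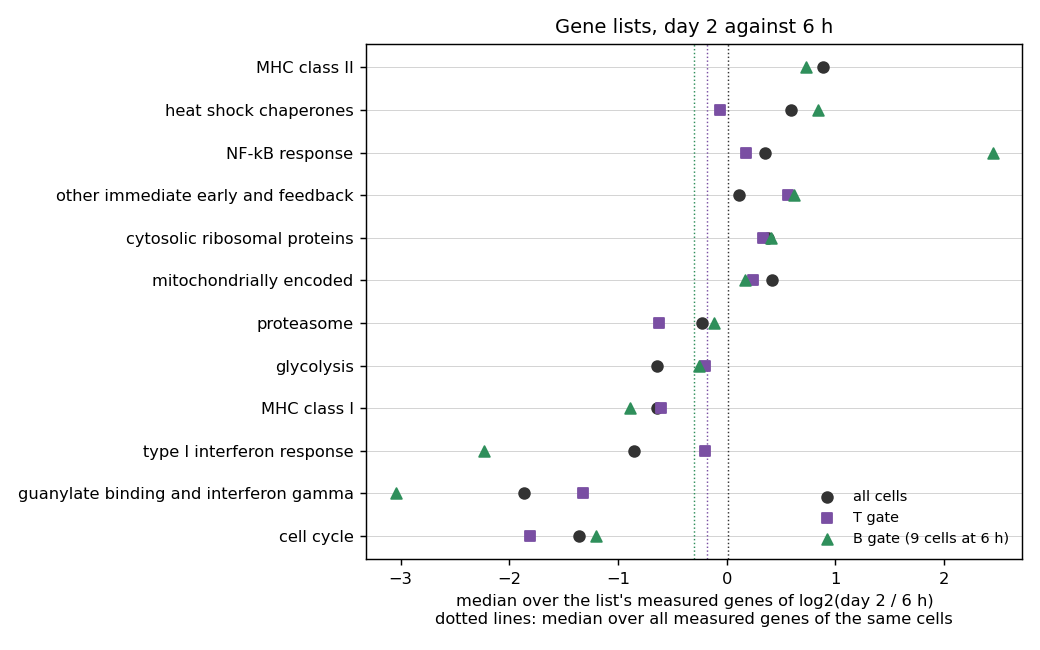
Median over each list's measured genes of the log2 ratio of day 2 to 6 h (x axis) for 12 gene lists (y axis), over all cells, T gate cells and B gate cells. Dotted lines are the medians of all measured genes of the same cells (0.01, -0.18 and -0.30), and the interferon gamma list lies at -1.86, -1.32 and -3.04.

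The T gate was the only gate with at least 10 cells at both timepoints. Of 3508 genes measured in it, 15.1% were at least 2-fold higher at day 2 and 30.4% at least 2-fold lower, and 76.8% were at 10 rpm in a smaller and 21% in a larger share of the day 2 cells. Cd3e itself was in 18 of 19 and 16 of 17 cells, with means of 766.5 and 787.0 rpm. Cd4 without Cd8 was seen in 8 of 19 and 7 of 17.

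Of 13 measured genes of a list of T cell subset genes, 5 were at least 2-fold lower at day 2, Nkg7 and Cd44 among them, and 1, S1pr1, was higher, beside 30.4% and 15.1% of all genes measured in T cells, and the median was 0.32. Nkg7 and Cd44 were measured only through the 6 h cells, so that their place among the lower genes was set by the filter. Nkg7, a granule protein of cytotoxic cells, was at 10 rpm in 8 of 19 T cells at 6 h, 42.1% (20.3% to 66.5%), with a highest value of 4564 rpm, and in 0 of 17 at day 2 (0% to 19.5%), where the highest was 0.943 rpm. Cd44, the adhesion receptor that marks antigen-experienced T cells, was in 5 of 19 and had no read in the 17 cells at day 2. Il2rb, the beta chain of the interleukin 2 receptor, was picked after its values were seen, and was in 10 of 19 and 1 of 17. At least 1 of Nkg7, Ccl5, Cd44 and Gzmb, also put together afterwards, was in 9 of 19 cells at 6 h (47.4%, 24.5% to 71.1%), in 0 of 17 at day 2 and in 5 of 10 fresh T cells. Cd2, an adhesion receptor of T and NK cells, was in 17 of 19, 89.5% (66.9% to 98.7%), against 5 of 17, 29.4% (10.3% to 56%), with medians of 614.2 and 0 rpm (log2 ratio of means -1.64).

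Genes of naive, recirculating T cells were present at both timepoints. S1pr1, the receptor with which lymphocytes leave tissue, was in 14 of 19 and 16 of 17 cells, with medians of 220.3 and 1019 rpm and a log2 ratio of means of 1.22. Lef1 was in 12 and 13 cells, Tcf7 in 9 and 11, and Ccr7 in 10 and 12, although the mean of Ccr7 was lower at day 2, with 2457 and 1560 rpm (-0.66). In B cells S1pr1 had the opposite direction, with 8 of 9 and 15 of 29 cells and medians of 241.7 and 28.3 rpm (-1.66).

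**Figure D5:**
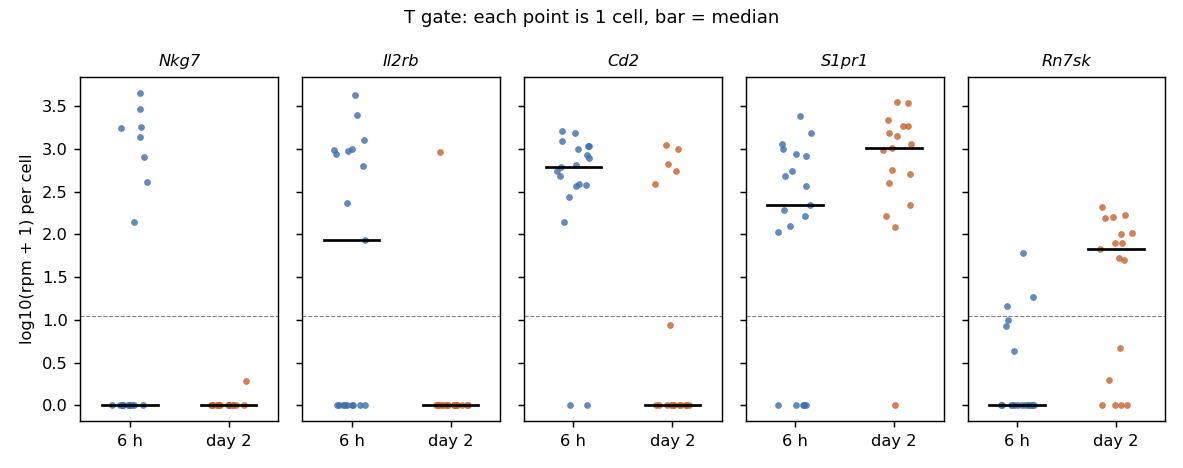
Level of 5 genes in each cell of the T gate (19 cells at 6 h, 17 at day 2), as log10 of rpm plus 1 (y axis). Each point is 1 cell, the bar is the median, and the dashed line is 10 rpm. Nkg7 reaches 4564 rpm at 6 h and 0.943 rpm at day 2, whereas S1pr1 is in 14 and 16 cells.

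By the same ranking, the 6 genes named as higher in T cells at day 2 were Rn7sk, Sh2d1a, Prkcq, Actn2, Acss1 and Slc12a7. Prkcq, the protein kinase C isoform of T cell receptor signalling, was in 5 of 19 and 11 of 17 cells, with means of 304.8 and 1166 rpm (log2 ratio 1.93). Sh2d1a, an adaptor of the SLAM receptors, was in 3 and 10 cells, with means of 55.9 and 370.3 rpm (2.71, or 3.55 from summed counts), and a single cell held 47.7% of its day 2 reads. Slc12a7, a potassium chloride cotransporter, was in 5 and 10 cells (2.56, or 3.58 without its highest cells). Acss1, a mitochondrial acetyl-CoA synthetase, had no read at 6 h and was in 6 of 17 cells at day 2, and Actn2, an actinin, was in 2 of 19 and 8 of 17.

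The 6 named as lower were Gnas, Mndal, Cd2, Rnf114, Arhgap4 and Atxn2l. Gnas, the stimulatory G protein alpha subunit, was in 14 of 19 cells at 6 h and 1 of 17 at day 2, with means of 159.3 and 24.1 rpm (log2 ratio -2.67, or -6.04 without the highest cell of each timepoint). Antisense transcripts overlap Gnas, and the counts cannot separate them. Mndal, an interferon-inducible nuclear protein, was in 15 and 3 cells (-2.38, or -3.01 without its highest cells). Rnf114, a ubiquitin ligase, was in 11 of 19 and had no read at day 2, against only 2 of 10 fresh T cells. Arhgap4, a GTPase-activating protein, was in 13 and 2 cells, and Atxn2l, a stress granule protein, in 14 and 3.

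Of 16 measured cell cycle genes, 9 were at least 2-fold lower over all cells and 0 higher (median -1.36), and in T cells 11 of 12 were lower (median -1.81), beside 17.1% and 30.4% of all genes measured in the same cells. Tyms, among the 11 in T cells, had no read at day 2 and was measured only through the 6 h cells. The counts behind them came from few cells: Mcm5, a subunit of the replicative helicase, was in 3 of 19 T cells at 6 h and 1 of 17 at day 2, and Mcm3 in 6 and 2. At day 2 both shares were under the 20% of cells that the gate filter asks to hold a read. These genes may also have been measured only through the 6 h cells, which shares at 10 rpm cannot decide. The 11 of 12 may thus be partly set by the filter. Of 17 glycolysis genes, 5 were at least 2-fold lower (Hk1, Hk3, Gapdh, Pgam1 and Slc2a3) and 0 higher (median -0.65), beside the same 17.1% and 14.4% of all genes, while the T and B cell medians of -0.20 and -0.26 were near those of all genes there.

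Genes of acute stimulation were mixed, and their counts over all cells stand beside 14.4% higher and 17.1% lower among all measured genes. Of 23 measured genes of the NF-kB response, 6 were at least 2-fold higher (Nfkb2, Rel, Tnf, Ccl4, Cd83 and Gpr183) and 5 lower (Tnfaip3, Il1b, Cxcl2, Icam1 and Traf1), with a median of 0.35. Without the neutrophil gate cells 6 were higher and 2 lower (median 0.41), beside 11.7% and 18.2% of all genes. The 6 were then not the same genes, since Rel (0.82) and Gpr183 (0.91) were short of 2-fold, and Nfkbid (1.25) and Nfkbiz (1.31) were past it. Cxcl2, a chemokine that draws neutrophils, then turned direction, from -2.98 to 0.41, and Il1b and Tnfaip3 were short of 2-fold, at -0.58 and -0.75. In T cells 4 of 13 were higher and 2 lower (median 0.18), beside 15.1% and 30.4% of all genes there. Traf1, among the 2, had no read in the day 2 T cells. In the B gate 10 of 14 were higher and 1 lower (median 2.45), beside 17.9% and 33.8% of all genes there. Of the 10, Nfkb2 and Tnf had no read in the 9 cells at 6 h and were measured only through the day 2 cells. Cd83, an activation marker of B cells, was in 1 of 9 and 10 of 29 B cells, with means of 65.7 and 499.9 rpm. Its share at 6 h was under the 20% of cells that the gate filter asks to hold a read. Cd83 may thus also have been measured only through the day 2 cells, which shares at 10 rpm cannot decide. The 10 of 14 may be partly set by the filter. Rel, an NF-kB subunit, was in 3 of 9 and 14 of 29 B cells. Of the 28 immediate early and feedback genes beside the AP-1 factors, 5 were higher and 4 lower over all cells (median 0.11). Without the neutrophil gate cells 9 were higher and 2 lower (median 0.45), beside 11.7% and 18.2% of all genes. In T cells 10 of 22 were higher and 3 lower (median 0.57), beside 15.1% and 30.4%, and Egr2, among the 10, had no read at 6 h. Of the AP-1 factors, 2 of 10 were higher and 3 lower over all cells (median -0.21), or 2 higher and 2 lower without the neutrophil gate cells (median 0.11), and in T cells 0 of 7 were higher and 3 lower (median -0.90). Cd69, an early activation marker that also retains cells in tissue, was in 7 of 19 and 10 of 17 T cells, with medians of 0 and 831.6 rpm.

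Of 17 heat shock chaperones, 5 were at least 2-fold higher (Hspa1a, Hspa1b, Hsp90aa1, Dnajb1 and Dnajb4) and Hsph1 was lower (median 0.59), beside 14.4% and 17.1% of all genes. With the neutrophil gate left out 4 were higher and 2 lower (median 0.39), beside 11.7% and 18.2%, with Dnajb1 short of 2-fold (0.82) and Hspd1 past it (-1.13). Hspa1a, the inducible Hsp70, had means of 143.3 and 704.2 rpm and was in 34.2% and 46.2% of cells. Hspa1a and Hspa1b are near-identical, and reads may be shared between them. In T cells the median of the list was -0.062, with 2 of 15 genes higher and 3 lower, beside 15.1% and 30.4% of all genes there. In B cells it was 0.84, with 8 of 17 higher and 1 lower, beside 17.9% and 33.8%. The 4 cold-inducible genes held 0 at least 2-fold apart over all cells (median 0.07), and 0 in T cells (median -0.73).

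Over all cells, ribosomal protein genes were nearly all slightly higher at day 2. Of 89 genes whose symbols begin with Rpl or Rps, 84 were higher at day 2 by any amount, as were 50.4% of all measured genes, with a median log2 ratio of 0.38. The median was 0.12 without the neutrophil gate cells, and the T and B cell medians were 0.33 and 0.41. Some members turned lower without the neutrophil gate cells, such as Rpl32 (-0.27) and Rpl28 (-0.23). Over all cells 3 were past 2-fold, Rps6kb1 as higher and Rps19bp1 and Rps6ka4 as lower, beside 14.4% and 17.1% of all genes. They encode kinases of ribosomal protein S6 and a binding protein, not parts of the ribosome. Without the neutrophil gate cells 0 were higher and 1 lower. In T cells 0 of 87 were at least 2-fold higher and 3 lower, beside 15.1% and 30.4% of all genes there. In B cells 6 of 87 were higher, Rpl12 and Rps2 among them, and 1 lower, beside 17.9% and 33.8%.

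The T and the B gate shared 2514 measured genes. Of these, 345 were at least 2-fold higher at day 2 in T cells and 473 in B cells, with 80 in common, or 23.2% of the T cell set, beside the 18.8% of all 2514 genes that were higher in B cells, and 16.9% of the B cell set, beside the 13.7% that were higher in T cells. At least 2-fold lower were 643 and 605, with an overlap of 35.3% of the T cell set, beside the 24.1% of all genes that were lower in B cells, and of 37.5% of the B cell set, beside the 25.6% that were lower in T cells. The same mice gave both gates, so the overlap is a description of these libraries.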

How the data were processed

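Libraries of single Cd45+ cells followed an adapted SmartSeq2 procedure. To make the table, the authors trimmed the reads, took out duplicates (picard), mapped to GRCm38 (STAR) and assigned reads to genes without regard to strand (HTSeq, intersection-strict mode). Cells with very few reads had been left out by them. For picard, STAR and HTSeq no version was found in the sources used here. The deposited values are raw counts per gene and cell, not normalized. The other 273 columns of cells were not used. The 96 ERCC rows and 1 vector row (0.000602% of counts) were left out, which left 46603 gene rows.

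Each cell's counts were scaled to its sum over genes (rpm). Ratios are log2 of mean rpm plus 1, and a fold of 2 was the threshold. Within a gate, the read filter was 20% of cells, in place of the 10% over all cells. Gates were compared with at least 10 cells at both timepoints. Doublets were not called. Named genes were, among those past 2-fold, the first 10 (all cells) or 6 (T gate) in each direction by the difference in the share of cells at 10 rpm, without predicted genes and variable segments, plus the listed marker and pathway genes. A few of these are not reported here. The members and lists were chosen with earlier results of these data known. Shares carry exact Clopper-Pearson intervals at 95%. With 1 sample per timepoint no test was made. The code of the fold rule was tested on simulated data, which checks the code and not the threshold. Coordinates are those of GENCODE vM21 (GRCm38). Motifs were searched on both strands. Alternatives used summed counts (CPM), TMM (edgeR 4.0.16), size factors (DESeq2 1.42.0), other totals, thinning with a fixed seed, other filters, pseudocounts and gates, and all cells without the neutrophil gate (added after the data were seen). Python 3.11.15, pandas 2.3.3, scipy 1.17.1 and R 4.3.3 were used. The B gate comparison, which has 9 cells at 6 h, was added after the data were seen.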

Additional observations from a re-analysis of the deposited data

How the results depend on the processing

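The neutrophil gate left out of both timepoints (added after the data were seen) gave 734 genes higher and 1142 lower over all cells, 39.1% of them higher, around a median of -0.085, and a type I interferon list median of -0.28. With all cells, the scaling (CPM of summed counts, TMM, size factors, totals without 18S and mitochondrial genes), cells under 100000 counts left out, thinning, a pseudocount of 10 rpm and the highest cell of each gene left out kept both counts of genes within 1.5 times of 903 higher and 1071 lower. With no filter on low values the counts were 3078 and 3237. On the mean of log2(rpm + 1), which weighs the number of cells with reads, 170 genes were at least 2-fold higher and 1015 lower, and the higher genes made up 14.4% of those past 2-fold in place of 45.7%. The median over all genes was then -0.39, beside the lower number of genes read per cell at day 2. In the T gate the counts of 528 and 1065 became 2339 and 3820 with no filter, and 283 and 1618 on the mean of logs (14.9% higher, in place of 33.2%). Without the highest cell of each gene the T gate counts were 521 and 1538 (25.3% higher), around a median of -0.65 in place of -0.18. In the B gate, added after the data were seen, 748 and 1414 became 3651 and 2941 with no filter, 352 and 2162 on the mean of logs (14% higher), and 1270 higher genes without the highest cell of each gene. With the latter setting 48.6% of the B gate genes past 2-fold were higher, in place of 34.6%, with TMM 41.4% around a median of -0.12 in place of -0.30, and with no filter 55.4%. The B gate median was 0.026 without the highest cells and 0.078 with no filter. Gates at 50 rpm left the counts of both gates as they were.

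None of the 20 ranked genes of all cells and the 12 of the T gate changed direction under any of these settings, and other genes named in the text were not run through them all. Of their ratios 49 differed from the reported ratio by more than 0.5 on the log2 scale and 303 by less. The share of cells in more than 1 gate was 0% at 6 h with markers at 50 rpm and 7.69% at day 2 with markers at 1 read, and the other gate shares stayed within their intervals. Genes per cell were lowest in neutrophils, with 978.5 at 6 h and 757 at day 2. The median of the interferon gamma list was -1.31 on the mean of logs, -1.32 in the T gate and -3.04 in the B gate. The type I interferon list had -0.20 and -2.24 in those gates, the NF-kB list 2.45 in the B gate, the MHC class II list 1.59 and the cell cycle list -0.74 on the mean of logs. The heat shock list changed sign in the T gate, at -0.062. The causes were not tested. The number of cells, 9 to 29 in a lymphocyte gate, and 1 mouse per timepoint limit every value. No paired analysis was possible because each timepoint is 1 sample and wells carry no replicate numbers that pair them.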

Other observations

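The C1q gate held 5 cells at 6 h and 16 at day 2, too few for a comparison across genes. C1qa was in all of them, with medians of 4172 and 4146 rpm. Apoe, the lipid carrier of tissue macrophages, had medians of 9777 and 9270 rpm, and Cx3cr1, the fractalkine receptor of resident kidney macrophages, of 1354 and 1441 rpm. Cd81, a tetraspanin, was in 4 of 5 and 16 of 16 cells, with medians of 1143 and 2460 rpm. Tnf was in 1 of 5 and 7 of 16 cells, and in 7 of 7 fresh C1q cells. Hspa1a was in 4 of 5 and 12 of 16, with medians of 165.4 and 754.0 rpm. Irf1 was in 2 of 5 and 8 of 16 cells, against 7 of 7 fresh ones.

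Among the cells with NK or innate lymphoid markers, Gata3, the transcription factor of type 2 lymphoid cells, was in 4 of 8 at 6 h and 7 of 7 at day 2. Ncr1, the NK cell receptor NKp46, was in 5 of 8 and 2 of 7, and Gzma, a granzyme, in 4 of 8 and 2 of 7. The intervals of the Gata3 shares over cells were 15.7% to 84.3% and 59% to 100%. Gata3, Ncr1 and Gzma are among the 9 markers that define this gate, so their shares within it are partly set by the gate.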
